A study of Rattus norvegicus with 4 samples.

Results

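The MYC-MAX network is the family of basic helix-loop-helix leucine-zipper transcription factors that bind DNA as pairs around the shared partners MAX and MLX. Its transcripts were examined in NR8383 cells, a macrophage line first grown from rat lung lavage. The 9 members were Myc, Mycn, Max, Mxd1, Mxd3, Mxd4, Mxi1, Mnt and Mlx, found as every non-control probe that the array's own gene name assigned to a member or to its older rat alias. They had 11 probes, with 1 probe for 7 members and 2 probes for Max and Mxi1, among 18857 named genes on the array.

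The series holds 1 group, a submerged control in 4 replicates that the design text describes as biological, so the members could be compared between replicates and not between conditions. The cells came from 1 commercial line, had been passaged 20 times and grew in medium with 15% heat-inactivated serum and 2 mM glutamine. The labels give both 48 h after seeding and 4 h of submerged incubation, and which interval the RNA stands for was not settled. The labels do not say how the cultures were kept apart. The p-values set a probe's spread between these 4 samples against that of other probes of like signal. They speak for these samples only and test no difference between given cultures.

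As background known mainly from human and mouse, MYC proteins pair with MAX at the hexamer CACGTG, the canonical E-box, and activate genes of ribosome production, metabolism and cell division. The MXD proteins, MXI1 and MNT pair with MAX at the same hexamer and recruit the SIN3 corepressor with its histone deacetylases. MLX pairs with MondoA and ChREBP, which respond to glucose metabolites, and also with some MXD proteins and MNT. In macrophages MYC is known for its part in proliferation and in alternative activation.

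The cells carried the marker transcripts of their label. Of 14 macrophage markers, 13 were well above background on all 4 arrays, among them Cd68, Csf1r, Spi1 and Itgam, and Marco was not well above background on any. Marco had 1 probe, and whether that probe works was not tested. Of 18 markers of other cell types, 4 were detected, Cd79a, Col1a2, Dcn and Cdh5, and Cd3e, Cd3g and Ms4a1 were among the 14 that were not detected on all arrays. With the software's less strict positive-and-significant flag, 7 of the 18 were detected. Over all named genes, 54.9% were well above background on all arrays and 65.5% were positive and significant on all. Array brightness, as the 75th percentile of processed signals, ran from 958 fluorescence units on replicate 4 to 1489 on replicate 2. Replicate 4 was thus the dimmest array, and its bright spike-in probes stood highest over that percentile, by 2.85 on the log2 scale where replicates 1 to 3 had 1.86, 1.87 and 2.46. Levels below are log2 processed signals relative to the 75th percentile of the same array, and levels of different probes cannot be ranked against each other.

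Of the 9 members, 8 were detected on all 4 arrays, meaning that at least 1 probe was well above background on each. The same criterion called 54.9% of all named genes. The exception was Mycn. The same 8 members were detected with the software's positive-and-significant flag, which called 65.5% of all named genes, and with detection on at least 2 arrays, which called 59.3%. Of the 11 probes, 10 were well above background on every array. The network therefore held 1 detected MYC gene, the partner Max, all 5 repressor members (Mxd1, Mxd3, Mxd4, Mxi1 and Mnt) and Mlx. In a bulk culture, fewer cells with a transcript and less of it per cell cannot be told apart.

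Myc, the proto-oncogene that activates growth genes, was read by a probe at chr7:98957687-98957746 of rn4 on the plus strand, spotted in 2 places on each array. On replicates 1 to 4 it gave processed signals of 1660, 1579, 1383 and 744 units. Relative to the 75th percentile its level was 0.33, 0.08, 0.23 and -0.36, which is 0.07 ± 0.31 (SD, n = 4) and a 1.62-fold range. Replicates 1 to 3 lay close together and replicate 4 lay below all of them. Both spots put the replicates in the same order of signal: 1624 and 1697 units on replicate 1, 1551 and 1607 on replicate 2, 1375 and 1392 on replicate 3, and 737 and 752 on replicate 4. Spots on 1 array differed by 0.02 to 0.06 on the log2 scale, while the median over 706 probes with 2 spots was 0.06 to 0.07.

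Mycn, the MYC paralog known from embryonic and neural tissue, was read by a probe at chr6:36508562-36508621 on the minus strand. Its processed signal was 4.30, 4.80, 5.10 and 5.50 units on replicates 1 to 4, each flagged as a surrogate value that the software had set. The 95th percentile of 308 negative-control spots was 4.34, 5.05, 5.22 and 5.61 units on the same arrays. Mycn thus lay within the range of the negative controls on each, but surrogate values are no independent reading of its level. The lowest signal that any probe well above background reached was 16.6, 18.4, 19.1 and 20.3 units. Mycn had 1 probe, and whether that probe works was not tested. Mycl, the remaining MYC paralog, had 2 probes and neither was well above background on any array.

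Max, the shared partner without which MYC does not bind DNA, had 2 probes under its own name. The brighter lies at chr6:99530023-99530082 on the minus strand and starts at base 305 of the transcript the array assigns to it. Its 60 bases are printed with those of the Mxd3 probe and of the dimmer Mxi1 probe, because the readings of Max and Mxi1 depend on the probe and Mxd3 was the repressor with the largest SD. The letters are those of the array's annotation, 5′ to 3′, in lower case with no part marked.
Max: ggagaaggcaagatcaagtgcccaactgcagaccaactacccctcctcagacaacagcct
Mxd3: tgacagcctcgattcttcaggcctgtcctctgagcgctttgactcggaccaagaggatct
Mxi1: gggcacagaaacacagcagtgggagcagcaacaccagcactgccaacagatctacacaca

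The brighter Max probe read -2.48, -2.28, -2.35 and -2.61 on replicates 1 to 4, a level of -2.43 ± 0.15 (SD, n = 4) and a 1.26-fold range. Replicate 2 was highest and replicate 4 lowest. The dimmer Max probe, at chr6:99530766-99530825, read -5.02, -5.02, -5.47 and -4.83, with replicate 3 lowest and replicate 4 highest. The order of the replicates thus depended on the probe. A further probe, at chr6:99528686-99528745, is described as Max by the array but carries another gene name and was not counted among the 11. It read 1.03, 1.24, 1.03 and 1.02, with replicate 2 highest and the other 3 within 0.01 of each other.

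Mxd1, a repressor that rises when human and mouse myeloid cells differentiate, was read at chr4:120801994-120802053 on the minus strand. Its signal was 242, 261, 209 and 138 units, and its level was -2.45, -2.51, -2.49 and -2.80 on replicates 1 to 4 (-2.56 ± 0.16, SD, n = 4). Replicates 1 to 3 lay within 0.06 of each other and replicate 4 lay below them.

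Mxd3, a repressor known in mouse from cells in S phase, was read by the printed probe, whose 60 bases map to chr17:15349346-15349485 on the plus strand, a genomic span of 140 bases. Its signal was 145, 138, 97.2 and 66.4 units. Its level was -3.18, -3.43, -3.60 and -3.85, which is -3.52 ± 0.28 (SD, n = 4) and a 1.59-fold range. All 4 replicates differed, with replicate 1 highest and replicate 4 lowest, and 91.0% of detected genes had a smaller SD.

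Mxd4, a repressor known from differentiated and resting mouse tissue, was read at chr14:82264481-82264540 on the plus strand. Its level was 1.11, 0.97, 1.34 and 0.98 on replicates 1 to 4 (1.1 ± 0.17, SD, n = 4), highest on replicate 3 and nearly equal on replicates 2 and 4. Both probes that the array describes as Mxd4 under other gene names had replicate 4 lowest instead. They read 1.30, 1.05, 1.36 and 0.86 at chr14:82267124-82267183, and -1.42, -1.66, -1.43 and -1.72 at chr14:82266031-82266090.

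Mxi1, the MXD-family repressor first found as a MAX interactor, was read at chr1:259549420-259549479 and by the printed probe, whose ends map 15459 bases apart at chr1:259511025-259526483. Both lie on the plus strand. The brighter probe read -1.20, -1.42, -1.28 and -1.55 on replicates 1 to 4 (-1.36 ± 0.16, SD, n = 4). The printed probe read -2.90, -3.12, -2.84 and -2.78 (-2.91 ± 0.15, SD, n = 4). Replicate 4 was therefore lowest on the brighter Mxi1 probe and highest on the dimmer one.

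Mnt, a widely expressed MAX-binding repressor that is present in dividing cells, was read at chr10:62161589-62161648 on the plus strand. Its signal was 7949, 8999, 6433 and 6271 units and its level was 2.59, 2.60, 2.45 and 2.71 (2.59 ± 0.11, SD, n = 4). Mlx, the partner of MondoA and ChREBP, was read at chr10:90108096-90108155 on the plus strand. Its signal was 570, 710, 576 and 519 units and its level was -1.21, -1.07, -1.03 and -0.89 (-1.05 ± 0.13, SD, n = 4). Among the detected members, Mnt and Mlx were those whose highest level was on replicate 4.

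**Figure D1:**
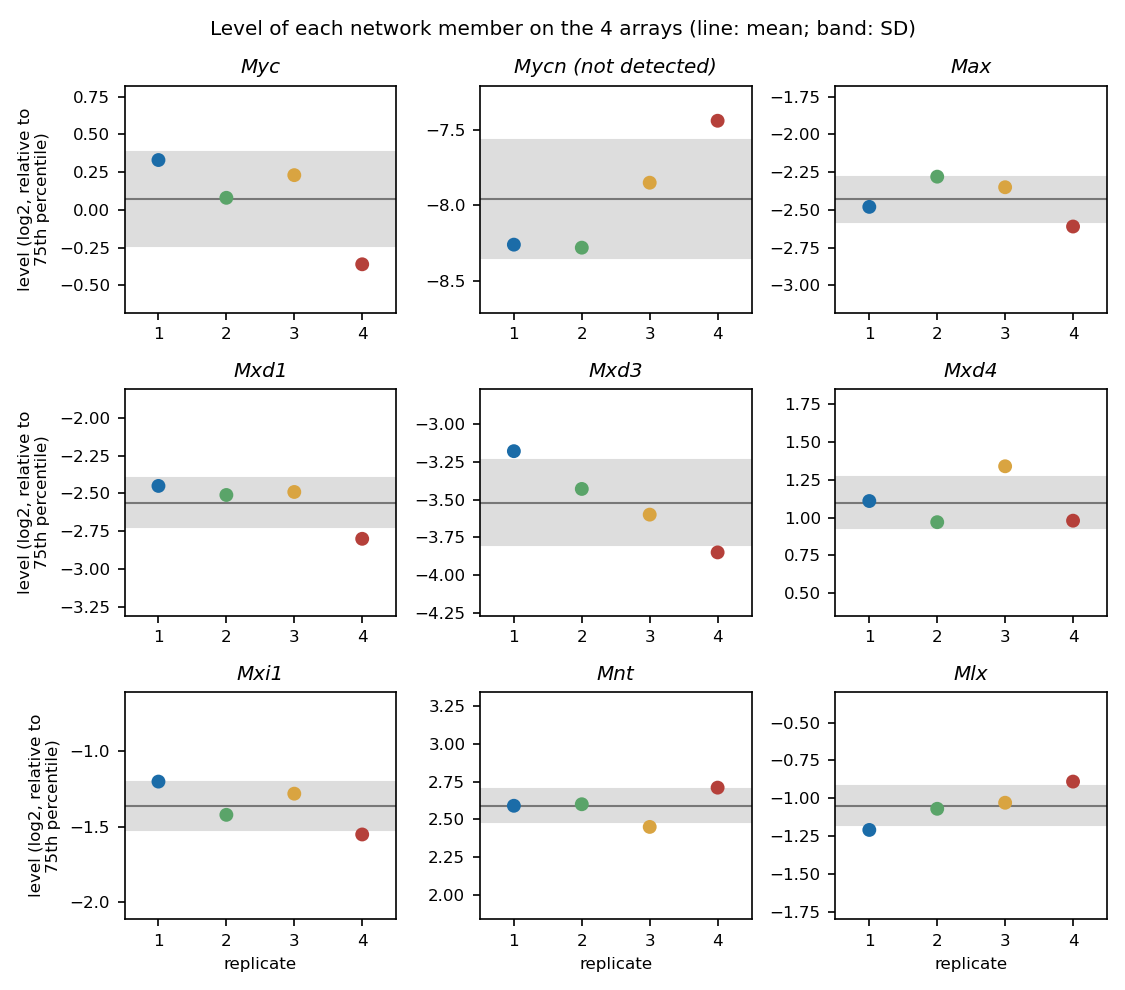
Level of each network member (vertical axis, log2 processed signal relative to the 75th percentile of the array) on replicates 1 to 4 (horizontal axis), with the mean as a line and 1 SD either side as a band; every panel spans 1.5 log2 units around its own mean. Myc, Max, Mxd1, Mxd3 and Mxi1 have their lowest point on replicate 4, while Mnt and Mlx have their highest point there. The Mycn values are surrogate values set by the software and lie within the range of the negative controls.

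How far the members varied between replicates was set against all detected genes. The median SD of the 8 detected members was 0.16, from 0.11 for Mnt to 0.31 for Myc, while the median over all 10353 detected genes was 0.11. Of the 8, 7 lay above that median, which covers genes of every signal. Beside the SD that limma's prior gives for probes of like signal, the ratio was 2.97 for Myc, 1.76 for Mxd4 and 1.5 for Mxd3. It was 1.28 for Mxi1, 1.15 for Mlx, 1.14 for Mnt, 1.07 for Mxd1 and 1.0 for Max. Myc had a larger SD than 92.5% of detected genes and Mxd3 than 91.0%, and for the other 6 this share was 47.7% (Mnt) to 75.1% (Mxd4). The place of Mxd3 depended on the background correction. With normexp and an offset of 50, which compresses dim signals, its SD was 0.12, larger than that of 58.9% of detected genes, while Myc kept an SD of 0.29 and a share of 96.0%. Max (49.5%), Mnt (45.8%) and Mxd1 (35.4%) then had shares under 50%. The median SD of the members with normexp was 0.12, while all detected genes had 0.10.

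**Figure D2:**
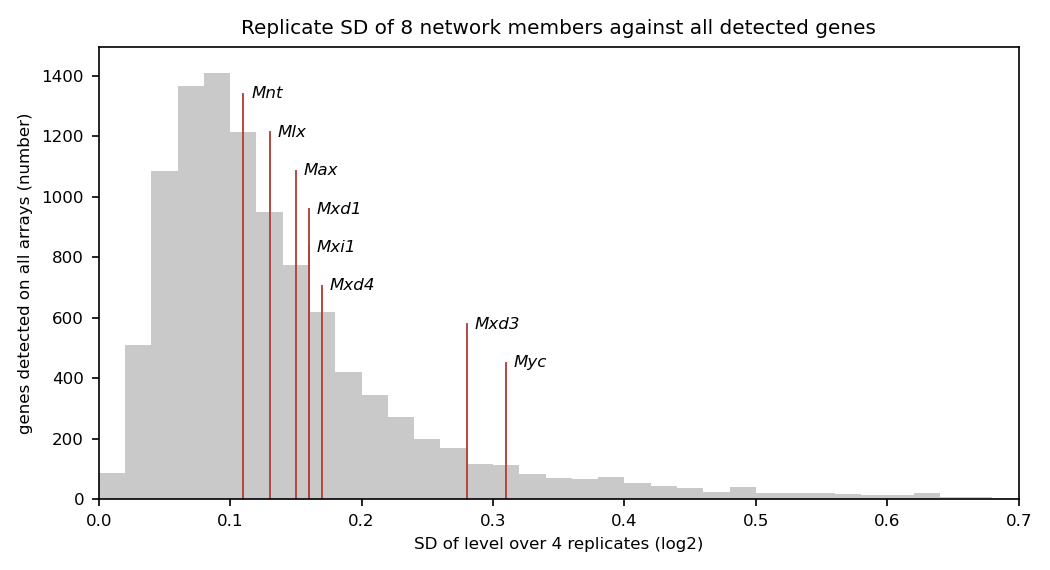
Histogram of the SD of the level over 4 replicates (horizontal axis, log2) for the genes detected on all arrays (vertical axis, number of genes), with a red line at the SD of each of the 8 detected members; the axis ends at 0.7 and leaves out 79 genes above it. Myc and Mxd3 stand in the right tail, beyond the 90th percentile of 0.27, and the other 6 stand between 0.11 and 0.17; with normexp background correction the SD of Mxd3 is 0.12 and it is no longer in the tail.

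No member passed limma's test of the variance between replicates, adjusted over all 19400 detected probes, which 15 of 10353 genes (0.145%) passed. At an unadjusted p under 0.05, 1 of the 8 detected members passed, Myc, while 5.67% of all detected genes did. No member passed at that level with spike-in scaling (Myc, limma unadjusted p = 0.17) or without the trend of the prior on signal (0.095). Without replicate 4 the SD of Myc was 0.13 (limma unadjusted p = 0.22), and Mxd4 was the member that passed. The SD of Myc was 0.31 where limma's prior gave 0.10 for probes of its signal (limma, unadjusted p = 0.011, adjusted p = 0.40). For Mxd4 the limma adjusted p was 0.94, and for each other detected member it was 1.0. The Mxd4-described probe at chr14:82267124-82267183 had an SD of 0.23 (limma, unadjusted p = 0.031, adjusted p = 0.66). In simulated data of this size the test called 3.5% of probes with 4 times the usual SD and 65% of those with 8 times. A true SD of 4 times the usual would thus rarely be called on 4 arrays. The SD of Myc was 2.97 times the prior's SD for probes of like signal, but this is an observed ratio. The simulated multiples are of the SD that values were drawn from, so these shares do not apply to Myc directly.

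By their brightest detected probes, several members shared an order of the replicates. Replicate 4 was lowest for 5 of the 8 detected members, against 28.3% of all detected genes, and replicate 1 was highest for 4, against 19.8%. The count of 5 includes Max and Mxi1, whose dimmer probes had replicate 4 highest instead. The 3 probes described as Max or Mxd4 under other gene names had replicate 4 lowest, for Max nearly tied with other arrays. On replicate 4 the level of Myc lay 0.44 below its own mean, Mxd3 0.33 below, Mxd1 0.24 below, Mxi1 0.19 below, Max 0.18 below and Mxd4 0.12 below, whereas Mnt lay 0.12 above and Mlx 0.16 above. The median deviation of all detected genes on that array was 0.007. Members were chosen with earlier results of these data known and share the same 4 arrays, so these counts describe the arrays and carry no test. Replicate 4 was also the dimmest array and the one whose 4 detected markers of other cell types all lay above their own means, by 0.16 on average, and the part of either in the order of the members was not tested. The 13 detected macrophage markers lay 0.07 above their own means there on average. Among them Itgam, an integrin gene, varied most, with -1.42, -0.56, -1.59 and -0.03 on replicates 1 to 4 (SD 0.74, limma adjusted p = 0.065), highest on replicate 4. With signals scaled to the spike-in probes in place of the percentile, replicate 4 was lowest for all 8 detected members, Mnt and Mlx included, and for 91.8% of all detected genes, so the directions given for Mnt and Mlx depend on the scaling.

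Differences between 2 members on the same array do not depend on which constant each array is scaled by. Over the 28 pairs of detected members, the SD of the difference over replicates had a median of 0.23. It was smallest for Mxd1 minus Mxi1, at 0.07, where the differences were -0.05, 0.11, -0.01 and -0.05 on replicates 1 to 4 around their mean. It was largest for Myc minus Mlx, at 0.43, where they were 0.42, 0.03, 0.14 and -0.60, a 2.03-fold range. Myc minus Mnt gave 0.26, 0.00, 0.30 and -0.56 around its mean (SD 0.39), and Mxd3 minus Mlx gave 0.49, 0.11, -0.10 and -0.50 (SD 0.41). Myc was lowest on replicate 4 relative to each of the other 7 detected members. Relative to Mxd3 the gap between replicate 4 and the next arrays was small, with -0.07, -0.07, 0.24 and -0.10 around the mean. On replicate 4 Myc thus stood to Mxd3 nearly as on replicates 1 and 2.

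**Figure D3:**
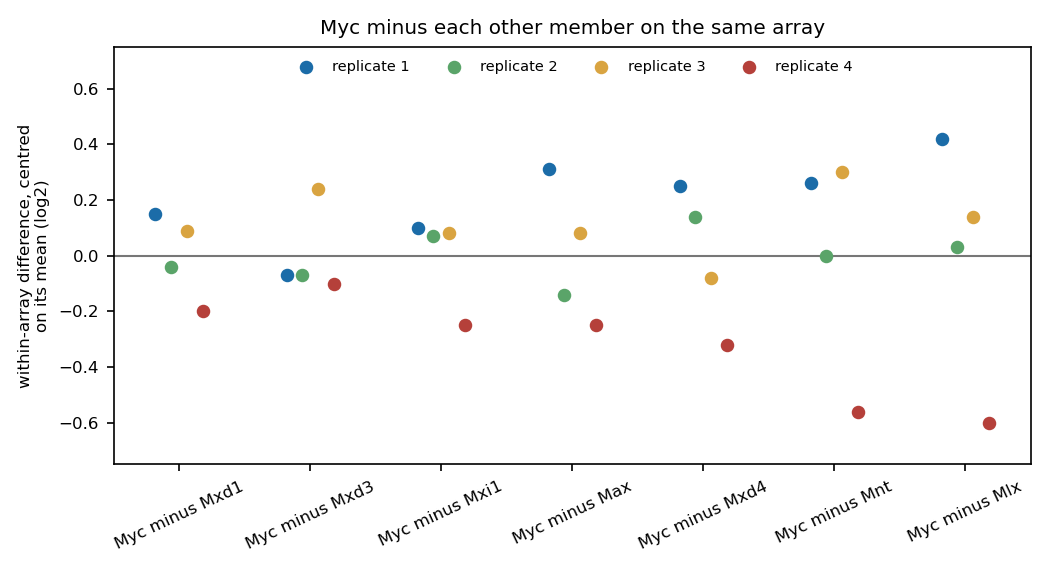
Level of Myc minus the level of each other detected member on the same array (vertical axis, log2, centred on the mean of the 4 arrays), ordered from the smallest SD to the largest; colours mark replicates 1 to 4. Replicate 4 is the lowest point in all 7 columns, from -0.10 for Myc minus Mxd3 to -0.60 for Myc minus Mlx.

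Of the other genes of the network, 3 of 4 were detected, where 54.9% of all named genes were. They were Mga, a MAX partner of a Polycomb complex, Mlxip, which encodes MondoA, and Mlxipl, which encodes ChREBP. Mga read -3.98 ± 0.08 (SD, n = 4). Mlxip read -4.25, -4.29, -5.24 and -4.49 on replicates 1 to 4, and Mlxipl read -3.83, -3.95, -4.76 and -3.72. Both partners of MLX were thus lowest on replicate 3, as 27.9% of all detected genes were. They lay below all other arrays by more than their SDs of 0.46 and 0.47, which include the low array. Mlx itself, at -1.03, was not low there. Of the 15 MYC cofactors described below, 13 lay below their own mean on replicate 3, where 52.9% of all detected genes did. A further Mlxip probe was not well above background on any array. The signals of both partners were dim, 31.1 units for Mlxip and 43.4 for Mlxipl on replicate 3. The lowest signal well above background there was 19.1 units. Neither passed limma's variance test (adjusted p = 0.88 for Mlxip and 0.74 for Mlxipl).

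The genes that MYC and its repressors work with were detected for the most part. Over all named genes, 54.9% were detected, and those had a median SD of 0.11. All 15 MYC cofactors were detected, with a median SD of 0.11. Among them, Trrap, a scaffold of histone acetyltransferase complexes, read -1.45 ± 0.11, and Kat5, an acetyltransferase, read 2.02 ± 0.14 (SD, n = 4 each). Kat2a, another acetyltransferase, read -3.82 ± 0.33 and Ruvbl1, a chromatin-remodelling ATPase, read 2.65 ± 0.05 (SD, n = 4 each). Of the 11 SIN3 and HDAC corepressor genes, 10 were detected, with a median SD of 0.09. The scaffolds Sin3a and Sin3b read -0.70 ± 0.19 and 2.75 ± 0.03, and the deacetylase Hdac1 read 1.95 ± 0.15 (SD, n = 4 each). Hdac2 had 1 probe and it was not well above background on any array, and whether that probe works was not tested.

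Of 15 genes that control the stability of the MYC protein, 12 were detected, where 54.9% of all named genes were. The ubiquitin ligase gene Fbxw7 read -0.96 ± 0.08, and the deubiquitinase genes Usp28 and Usp36 read -1.06 ± 0.14 and -1.51 ± 0.13 (SD, n = 4 each). Skp2 was well above background on 3 arrays, Usp37 on 2 and Huwe1 on none, although Skp2 and Usp37 were positive and significant on all 4. Huwe1 had 1 probe, and whether that probe works was not tested.

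Targets of the network were set beside Myc on the same arrays. Of 33 genes known as activated by MYC, 32 were detected, where 54.9% of all named genes were. Ncl (nucleolin) read 4.33, 4.36, 4.44 and 4.42 on replicates 1 to 4, and Npm1 (nucleophosmin) read 4.59, 4.64, 4.36 and 4.30. Odc1 (ornithine decarboxylase, for polyamines) read 0.55, 0.95, 0.61 and 0.84, and Cad (pyrimidine synthesis) read 1.0, 0.96, 1.04 and 1.24. Npm1 was lowest on replicate 4, whereas Ncl, Odc1 and Cad were not. Tert, the telomerase gene, was well above background on 3 arrays and positive and significant on all 4. Averaged over the 32 genes, the deviation from each gene's own mean was -0.02, 0.05, -0.04 and 0.01 on replicates 1 to 4, a mean over genes that went both ways. On replicate 4, 17 of the 32 lay below their own mean, which is 53.1%, as 48.1% of all detected genes did.

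Of 10 genes known as repressed by MYC, 8 were detected, with a median SD of 0.18, and Cdkn1c and Cebpa were not. Over all named genes, 54.9% were detected, and those had a median SD of 0.11. The cell-cycle inhibitor Cdkn1a read 2.26, 2.57, 2.26 and 2.57, Cdkn1b read 0.56, 0.31, 0.88 and 0.50, and Cdkn2b read -1.99, -1.77, -1.72 and -1.71. Averaged over the 8, the deviation was -0.11, -0.07, 0.09 and 0.10 on replicates 1 to 4. On replicate 4, 2 of the 8 lay below their own mean, where 48.1% of all detected genes did. On replicate 1, 7 of the 8 did, where 51.7% of all detected genes did. Of 5 targets of MondoA and ChREBP, 4 were detected: Txnip, a glucose-responsive arrestin, at -0.37 ± 0.15, Arrdc4, a related arrestin, at -1.71 ± 0.12, Tkfc, a triose kinase, at -1.25 ± 0.10 and Klf10, a zinc-finger factor, at 0.33 ± 0.08 (SD, n = 4 each). Arrdc4 was lowest on replicate 3, as Mlxip, Mlxipl and 27.9% of all detected genes were, and the other 3 targets were not. Pklr, the liver pyruvate kinase, was not detected on any array. In none of these lists did a gene pass limma's variance test.

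**Figure D4:**
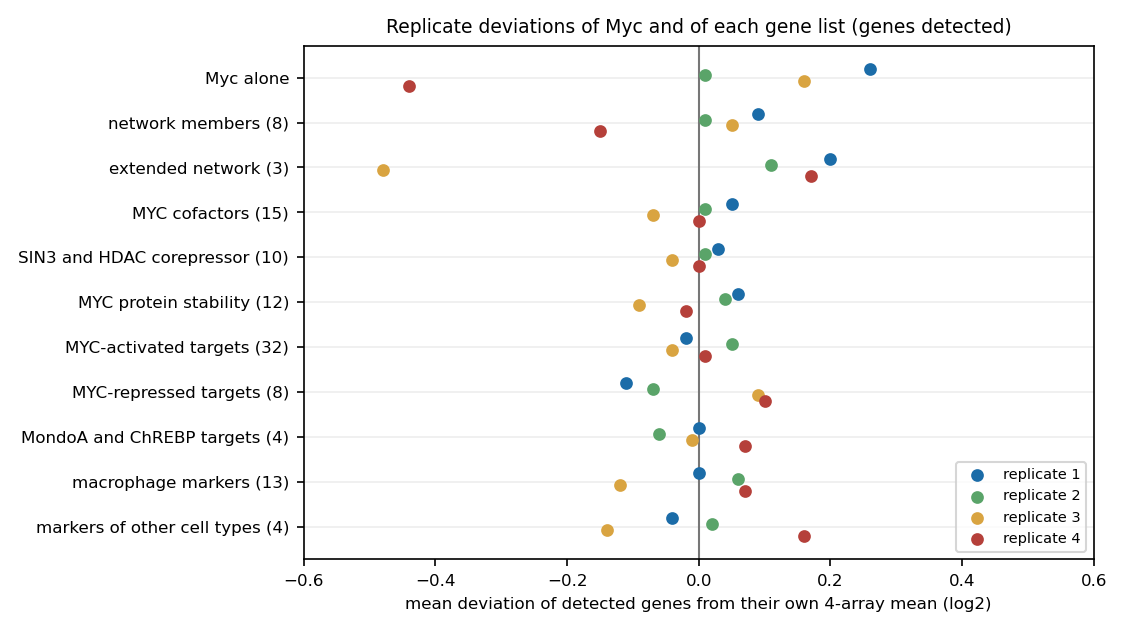
Mean deviation of the detected genes of each list from their own 4-array mean (horizontal axis, log2), for Myc alone and for 10 lists with the number of detected genes in brackets; colours mark replicates 1 to 4. Replicate 4 is the lowest point for Myc, at -0.44, and for the network members, at -0.15, and replicate 3 is the lowest for the extended network, at -0.48; a list's mean averages genes that went both ways and is not on the footing of a single gene.

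Among the 108 other list genes detected, the pattern of Myc over the 4 arrays was most closely followed by Laptm5, a lysosomal membrane protein gene of leukocytes, by Ubtf, a factor of ribosomal RNA transcription and a MYC-activated target, and by Pparg, a nuclear receptor of alveolar macrophages. Likeness was the root mean square difference of the centred levels, which was 0.095 for Laptm5, 0.102 for Ubtf and 0.106 for Pparg. Laptm5 read 6.55, 6.38, 6.44 and 6.08, Ubtf read 0.88, 0.77, 0.62 and 0.18, and Pparg read 4.04, 3.85, 3.95 and 3.61. They were picked for this likeness, so their shared order of replicates is no finding, and Laptm5 and Pparg come from the list of macrophage markers. Among all 10352 other detected genes, 42 were at least as near to Myc as Laptm5, 59 as Ubtf and 74 as Pparg.

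Promoters of the members were searched for the E-box through which the network binds. Promoter sequences, from 250 bases before to 50 bases after each gene's start, were those of RefSeq on GRCr8 and were matched by symbol for 7 of the 9 members. The letters searched were CACGTG, which read the same on both strands. The hexamer was found in 4 of the 7, for Max, Mxd4, Mnt and Mlx, and not in the windows of Mxd1, Mxd3 and Mxi1. It stood in 7.08% of all 27457 promoters, in 9.83% of those of detected genes and in 11.6% of those of detected genes whose G and C content lay within the range of the members, 57.7% to 75.7%. The 4 windows are shown because they are the network's own binding letters in the promoters of its members, 5′ to 3′ on the strand of the gene, with the hexamer in capitals.
Max (chr6:101395306-101395335, minus strand): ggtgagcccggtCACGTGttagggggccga
Mxd4 (chr14:80786572-80786601, plus strand): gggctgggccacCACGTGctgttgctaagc
Mnt (chr10:60197824-60197853, plus strand): ccccacccaagcCACGTGtgcgcgcgcgat
Mlx (chr10:86519804-86519833, plus strand): ggtggcttggatCACGTGactgagcctcgc

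The hexamer begins 33 bases before the gene start for Max, 70 for Mlx, 123 for Mnt and 197 for Mxd4. Among MYC-activated targets 11 of 28 promoters held it (39.3%), and Cdk4, the gene of a cyclin-dependent kinase, held 3 copies. The first and the last of these are shown as examples of a target promoter.
Cdk4 (chr7:64771238-64771267, plus strand): aagtaaaggggtCACGTGggatagcaacag
Cdk4 (chr7:64771346-64771375, plus strand): atgggtggaggtCACGTGtccagaacgtcc
The hexamer was in none of the promoters of MYC-repressed genes (7), SIN3 and HDAC genes (9), the extended network (4), macrophage markers (9) or markers of other cell types (9). At the 9.83% of detected genes, lists this short would hold few or none. A match is a set of letters in a window, and binding was not measured here. The MYC-activated list holds known targets, and how far such knowledge rests on this hexamer was not examined. On the percentile scale the members with the hexamer did not share an order of replicates. On replicate 4 Max, by its brighter probe, and Mxd4 lay below their own means and Mnt and Mlx above. With spike-in scaling each of these members was lowest on replicate 4, as 91.8% of all detected genes were.

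**Figure D5:**
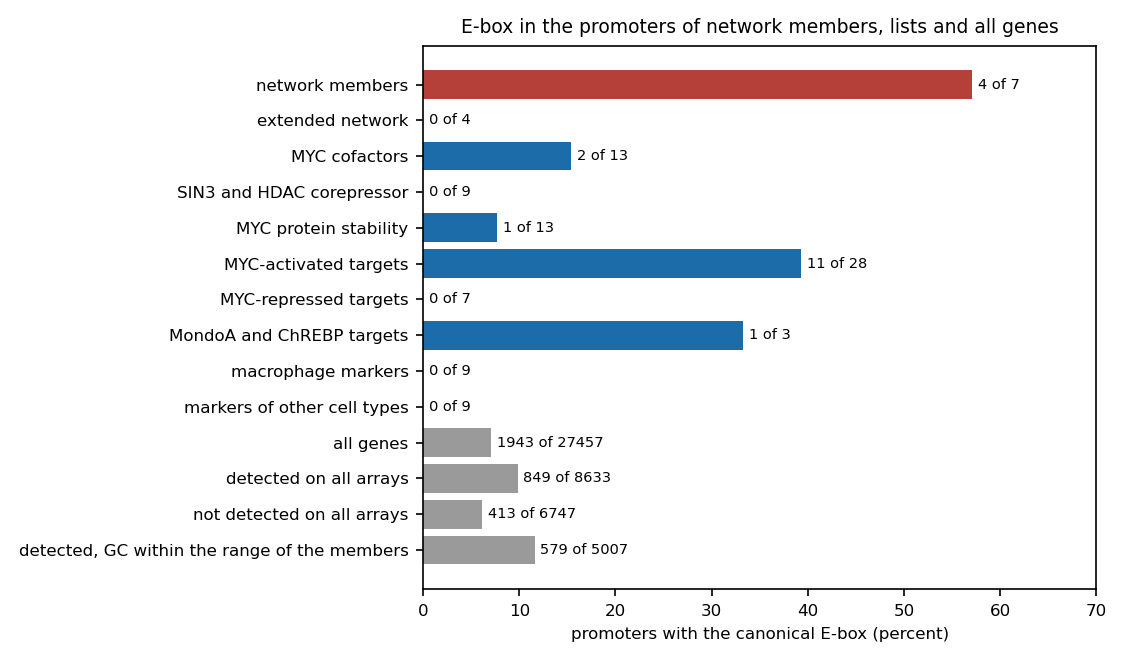
Percentage of promoters that hold the canonical E-box (horizontal axis) for the network members in red, 9 gene lists in blue and sets of all genes in grey, with the number of promoters with the hexamer of the number searched beside each bar. The members stand at 57.1% on 7 promoters and MYC-activated targets at 39.3% on 28, and all genes stand at 7.08%.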

How the data were processed

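Cy3-labelled material from 4 samples was hybridised, per the labels' protocols, to Agilent rat arrays of 1 colour and 1 slide. The deposited values are fluorescence intensity per spot, made with Agilent Feature Extraction (version 11.0.1.1 in the submitters' processing notes). Its processed signal is background-corrected on each array alone, per the file headers, with no scaling between arrays. Spots with the software's non-uniformity or population outlier flags were dropped.

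The level of a probe is the log2 of its processed signal less that of the 75th percentile of the array's non-control spots. Detection on an array needed over 0.5 of a probe's spots to be well above background, and the brightest detected probe stood for a gene. All probes were named through a RefSeq table of GRCr8, with accessions for 23863, current symbols for 5124 and former symbols for 351. The other 16260 retain the name that the array's design gives. Probe coordinates come from the files and refer to rn4, without exon or UTR annotation. With 1 slide, a slide batch could not be tested, and the number of arrays limits the precision.

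Replicate variances were tested with limma (3.58.1, R 4.3.3), which set each probe's residual variance against a robust prior with a trend on mean signal, and Benjamini-Hochberg adjustment was applied at 0.05. The code was tested on simulated data, where 93% of probes with 16 times the usual SD were called, with 11 false calls among 19400 probes. Python 3.11.15, numpy 2.4.6, pandas 2.3.3 and matplotlib 3.10.9 were used.

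The members and the 9 lists of other genes were chosen with earlier results of these data known. Named were all members and extended network genes, the first 4 genes of each other list with a probe, the genes of a list where 4 or fewer were or were not detected, any past the variance test, and the 3 list genes nearest to Myc. Cdk4 was chosen after its promoter was seen, and 1 gene that the rule names is not reported here. Alternatives covered detection, background correction, scaling, filters, the prior, the threshold and each replicate left out.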

Additional observations from a re-analysis of the deposited data

Results flagged for a closer look

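Of 58 values examined over the 4 arrays, 4 had 1 array far from the other 3, by a gap that chance gives in about 1 of 20 cases, so 2.9 would be flagged by chance. The gap to the nearest array took up a share of 0.949 of the range for the Max-described probe at chr6:99528686-99528745, which was highest on replicate 2. It took up 0.86 for the mean of the 3 detected genes of the extended network, which was lowest on replicate 3 with 0.20, 0.11, -0.48 and 0.17 on replicates 1 to 4. For the macrophage marker Csf1r it was 0.902, with 0.04, -0.16, 0.03 and 0.02. For the fibroblast collagen Col1a2 it was 0.833, with -3.42, -3.45, -3.81 and -3.49. The detected members' own values were not among the 4.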

How the results depend on the processing

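The same 8 members were detected under every detection alternative, while the count over all genes was 8904 to 12357. The count of genes past the variance test, 15 as reported, was 119 with normexp, 0 with spike-in scaling, 502 with no filter on dim probes, 0 without the robust step, 0 without the trend, 0 at a threshold of 0.01 and 0 to 34 with 1 replicate left out (0 without replicate 3). With no filter on dim probes 1 member passed, Myc (limma adjusted p = 0.01); over its other alternatives the adjusted p of Myc was 0.14 to 1.0, and no member passed with 1 replicate left out (0 to 0). Myc was lowest on replicate 4 under each alternative that kept that array; without it the SD of Myc was 0.13 and its adjusted p 1.0. The median SD of members was 0.59 with spike-in scaling, where all genes had 0.50, and 0.11 to 0.18 with 1 replicate left out (0.11 without replicate 4, where all genes had 0.09). With normexp it was 0.12 and all genes had 0.10. Replicate 4 was lowest for 5, 6 or 8 members under each scaling, background and replicate setting that kept it, the 8 with spike-in scaling. It was lowest for 91.8% of all detected genes with spike-in scaling. Over the other settings that share was 23.5% (normexp) to 38.4% (without replicate 3). The counts of members took the brightest detected probe of each member. The order of replicates was not counted with a member's probes averaged, and the dimmer Max and Mxi1 probes had replicate 4 highest. What causes the shifts between settings was not tested. Of 88 member levels recomputed, 23 moved by more than 1 SD, in scaling, background and probe-averaging settings, and 17 of 18 list counts stayed within 1.5 times; the other was markers of other cell types, 7 with the positive-and-significant flag against 4. No paired analysis was possible because only 1 group exists. Limits: 4 arrays on 1 slide, 1 line and 1 or 2 probes a member; signals of Mlxip, Mlxipl and the dimmer Max probe are near background.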
